A study of Mus musculus with 14 samples.

Results

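The genes described here encode the proteins of the cytoplasmic ribosome. They were taken as the lines of the deposited gene count table whose symbol has the form of a small subunit gene (Rps and a number, or Rpsa), a large subunit gene (Rpl and a number) or a P stalk gene (Rplp0, Rplp1 and Rplp2), with the biotype protein coding. The rule gave 87 lines, which are 81 genes of 55487 in the table, 31 of the small subunit and 50 of the large subunit. It leaves out the mitochondrial ribosomal proteins, processed pseudogenes, and partners with other names such as Fau and Rack1. The low-count filter kept 78 of the 81 genes. The other 3, Rpl3l, Rpl10l and Rpl39l, did not exceed 0.574 CPM (counts scaled to a common library size) in any library.

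The series measured RNA of ureteric bud cells, the epithelium that grows into the collecting ducts, from mouse kidneys at E13.5 (embryonic day). There were 14 libraries in 4 groups. Libraries 2, 4, 5, 6 and 7 are labelled Cep120 KO (Cep120 is a centriole protein needed to build centrioles), and 3 are labelled Pkd1 KO (Pkd1 encodes polycystin-1 and is the main gene of dominant polycystic kidney disease). Each line has 3 controls, labelled WT although their titles mark them as heterozygous. Deletion is by the Hoxb7-Cre transgene, which acts in the ureteric lineage and also marks it with GFP, so all 4 groups carry the transgene and were sorted for GFP. Nothing in the labels tells if a replicate is 1 embryo, a litter or a pool; the p-values thus reflect only how far these libraries vary, in part perhaps for technical reasons.

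A ribosome joins a small subunit, which reads the messenger RNA, to a large subunit, which makes the peptide bond, and each subunit holds a single copy of nearly every ribosomal protein. Most of these messenger RNAs begin with a cytosine followed by a pyrimidine run, the terminal oligopyrimidine (TOP) motif, through which mTOR signalling and the protein LARP1 control their translation. Several ribosomal proteins that are not built into ribosomes, RPL5 and RPL11 foremost, bind MDM2, the ligase that degrades p53.

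The start of the transcript is shown first, because the TOP motif lies there. RefSeq start windows of build GRCm38.p6 were found for 61 of the 81 genes, with 73 starts in all. A run of at least 5 pyrimidines beginning with C exactly at the annotated start was present at 13 of the 73 starts (17.8%), against 2.51% of all 32851 starts in the table. The 6 letters CTTTCC, read on the sense strand between 5 bases before and 15 bases after the start, were at 9 member starts (12.3%) and at 0.764% of all starts. The 6 windows with such a run that follow are each of 10 bases before the start and 20 bases from it, on the strand of the gene, with the run in capitals. They lie at chr4:86857348-86857377 (Rps6, minus strand), chr3:90213629-90213658 (Rps27, minus strand), chr17:27635225-27635254 (Rps10, minus strand), chr17:33955646-33955675 (Rps18, minus strand), chr11:114668570-114668599 (Rpl38, plus strand) and chr7:141447641-141447670 (Rplp2, plus strand).
Rps6: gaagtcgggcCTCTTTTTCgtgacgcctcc
Rps27: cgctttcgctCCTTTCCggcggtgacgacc
Rps10: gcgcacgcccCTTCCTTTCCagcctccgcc
Rps18: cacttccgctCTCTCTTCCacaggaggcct
Rpl38: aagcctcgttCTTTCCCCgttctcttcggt
Rplp2: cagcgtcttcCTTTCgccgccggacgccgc

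The windows of Rpl4, Rps2 and Rpl13 had no run of that length at the annotated start. They are printed because these genes stood apart from the others in the comparisons, and they lie at chr9:64173377-64173406, chr17:24720053-24720082 and chr8:123102340-123102369, all on the plus strand.
Rpl4: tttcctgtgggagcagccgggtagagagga
Rps2: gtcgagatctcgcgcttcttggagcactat
Rpl13: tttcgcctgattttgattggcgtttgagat
Annotated starts can differ from the start used in these cells, which the data do not show. Of the 58 tested genes with a window, 13 had a run and 45 had none, and their median log2 fold changes in the Cep120 comparison were -0.95 and -0.92.

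Upstream, the letters CCGGAAG, which many ETS family transcription factors recognise, occurred on either strand in the 250 bases before 19 of the 73 member starts (26.0%) and before 6.91% of all starts. The 3 examples that follow are the 120 bases directly before the start, on the strand of the gene, with the motif in capitals. They are at chr4:86857368-86857487 (Rps6), chr11:114668460-114668579 (Rpl38) and chr10:128549169-128549288 (Rpl41, minus strand). The match describes these letters only.
Rps6: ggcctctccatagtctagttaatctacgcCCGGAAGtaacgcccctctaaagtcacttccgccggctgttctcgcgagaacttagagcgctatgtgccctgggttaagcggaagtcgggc
Rpl38: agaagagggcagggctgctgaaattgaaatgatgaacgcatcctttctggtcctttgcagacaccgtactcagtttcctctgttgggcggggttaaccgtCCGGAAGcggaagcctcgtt
Rpl41: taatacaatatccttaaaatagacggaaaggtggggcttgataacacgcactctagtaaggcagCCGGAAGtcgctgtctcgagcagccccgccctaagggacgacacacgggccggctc

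Total counts were 11347657 to 27967596 per library. Cep120 RNA measured 7.86 CPM in KO library 2, and KO libraries 4 to 7 ranged from 13.0 to 21.2 CPM, against 6.40 to 10.6 CPM in the controls of that line, so this transcript did not fall with the KO label and gives no check of it. Pkd1 RNA was at 2.39 to 2.68 CPM in Pkd1 KO and 3.34 to 4.60 CPM in its controls, and was not called (log2 fold change -0.65 ± 0.43 SE). In Cep120 KO it was at 3.60 CPM in library 2 and 12.3 to 15.5 CPM in libraries 4 to 7, against 3.35 to 5.89 CPM in the controls. That log2 fold change was 1.42 ± 0.39 (SE; edgeR, adjusted p = 0.0345). Libraries 6 and 7 labelled Cep120 KO differed in cell type markers. Their 6 nephron progenitor markers summed to 567 and 439 CPM, against 29.6 to 63.0 CPM in the other 12 libraries. Six2, a defining gene of that type, was at 127 and 86.0 CPM against at most 1.53 CPM elsewhere. Eya1, Meox1 and Osr1 were highest there too, while Cited1 (50.7 and 33.1 CPM) and Tmem100 (8.47 and 9.53 CPM) lay within the range of the other 12. The 13 ureteric bud markers of libraries 6 and 7 summed to 1514 and 2179 CPM, against 3664 to 4287 CPM in the other 12. The 6 stroma markers of libraries 6 and 7 summed to 98.2 and 131 CPM, against at most 42.4 CPM elsewhere. Foxd1, Col3a1 and Meis1 were above the other 12 in both libraries, Col1a1 only in library 7, and Pdgfra and Tbx18 in neither. The 7 macrophage and leukocyte markers summed to 20.8 to 30.1 CPM in the 5 libraries labelled Cep120 KO, against 68.3 to 74.9 CPM in the controls of that line and 30.8 to 44.0 CPM in the Pkd1 line. The largest part of the Cep120-line control sums was Coro1a, at 36.6 to 54.4 CPM, against 9.22 to 18.1 CPM in Cep120 KO. Tyrobp too was lower in every KO library than in every control of the line, while Ptprc, Cd68, Csf1r, C1qa and C1qb overlapped. The 7 erythroid markers summed to 5.24 to 1086 CPM in Cep120 KO and 492 to 7158 CPM in the controls of that line. In the Pkd1 line they summed to 13.1 to 4582 CPM. The 6 nascent nephron markers summed to 277 and 246 CPM in libraries 6 and 7, within the 124 to 326 CPM of the other 12. Of these, Wt1, Pax8 and Cdh6 were highest in libraries 6 and 7, and Jag1 and Nphs1 lowest. The share of reads on the mitochondrial genome ranged from 2.15 to 3.61% over libraries 4 to 7 and from 3.36 to 5.69% over the other 10. Libraries 4 and 5 had ureteric bud sums of 3803 and 4028 CPM, in which single markers moved both ways. There Calb1 was at 873 and 941 CPM against 1579 to 1787 CPM in the controls of that line, and Cdh1 at 305 and 338 CPM against 107 to 146 CPM. In libraries 6 and 7, Pax2 of the same list was at 61.8 and 54.5 CPM against 11.1 to 27.0 CPM elsewhere. Their Hoxb7 and Lhx1 lay within the range of the other 12. In bulk RNA, fewer cells of a type and less RNA per cell cannot be told apart.

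The genes were among the most abundant of the tissue. In the 6 controls, the median level per transcript length of the 78 tested genes ran from 315 to 9207 TPM (transcript abundance scaled to length and library size), with a median of 1768, and 67 exceeded 1000 TPM. Of the 100 genes of highest median TPM in the controls, 40 were ribosomal protein genes. Highest per length were Rps14, a small subunit protein of the platform, with 9207 TPM (8312 to 10143 over the 6 controls), Rpl32 with 8456 TPM (7387 to 9283), and Rpl41, which encodes the shortest of the ribosomal proteins, with 7730 TPM (7091 to 8386). Each of these ranges overlaps the next, so their order is not resolved. Lowest were Rpl27a with 315 TPM (274 to 350), Rpl5 with 351 TPM (326 to 383) and Rpl12 with 404 TPM (359 to 444), and Rpl27a and Rpl12 did not overlap. The levels of the tested members thus spanned 29.3-fold.

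**Figure D1:**
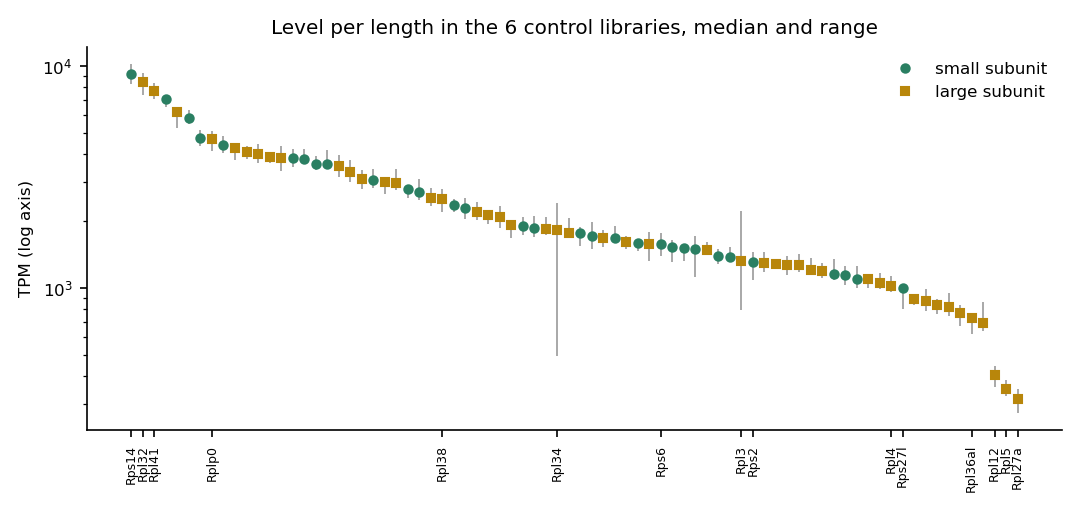
Median TPM (log axis) of the 78 tested ribosomal protein genes over the 6 control libraries, with bars from the lowest to the highest control and some genes labelled, small subunit genes as circles and large subunit genes as squares. Levels fall from Rps14 at 9207 TPM to Rpl27a at 315 TPM, and Rpl34 and Rpl3 have the widest bars.

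Rpl36al, an autosomal copy of the X-linked Rpl36a, was at 729 TPM in the controls against 1092 TPM for Rpl36a. Rps27l, a stress-linked copy of Rps27, was at 997 TPM against 3053 TPM. The muscle form Rpl3l and the testis-linked forms Rpl10l and Rpl39l were at or near 0: their highest values in any library were 0.574, 0.164 and 0.533 CPM, all in control 2 of the Cep120 line. Rps4l, a retrocopy of Rps4x that the table types as a transcribed pseudogene, is not a member; it was at 96.4 to 164 CPM. The spread over the 6 controls was small for most genes, with a median standard deviation of 0.22 on the log2 CPM scale, against 0.34 over all 16876 genes tested. Rps15a, Rps29 and Rpl21 varied least (0.14 each), and Rpl34 (0.96), Rpl3 (0.46) and Rps6 (0.28) varied most.

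In the libraries labelled Cep120 KO, ribosomal protein RNA was lower than in the controls of the line for most members. The 81 genes took 9.68% of all counts in library 2 and 6.65%, 6.56%, 7.11% and 6.87% in libraries 4, 5, 6 and 7, against 11.2%, 10.3% and 10.4% in controls 1, 2 and 3. This is 7.37% ± 1.31 (SD, n = 5) against 10.6% ± 0.497 (SD, n = 3), and the groups did not overlap. Library 2 had a small subunit share of 4.25%, and libraries 4 to 7 had 2.65 to 2.90%, against 4.46 to 4.86% in the controls. The corresponding large subunit shares were 5.44%, 3.91 to 4.20%, and 5.80 to 6.31%. Library 2 had a small to large subunit count ratio of 0.781, and libraries 4 to 7 had 0.661 to 0.704, while the 9 libraries of the other 3 groups kept to 0.756 to 0.781.

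Gene by gene, 69 of the 78 members fell and none rose in edgeR's quasi-likelihood test at a Benjamini-Hochberg adjusted p below 0.05, where 6.26% of all 16876 genes fell and 8.4% rose. The median log2 fold change of the 78 was -0.93, and that of all genes tested was 0.12. All 5 libraries lay below all 3 controls for 62 of the 78 members and for 8.73% of all genes. Scaled by library totals alone, the median of all genes moved to 0.51 and that of the members to -0.59, with 63 members lower (3.4% of all genes) and 1 higher. By subunit, 26 of 31 small subunit genes fell, with a median of -0.96, and 43 of 47 large subunit genes fell, with a median of -0.89.

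Library 2 lay nearest to the controls. Its median over the 78 members was -0.17 on the log2 CPM scale from the mean of the 3 controls, against -1.05 in libraries 4 and 5, -1.27 in library 6 and -1.33 in library 7. It lay below all 3 controls for 63 of the 78 members, while 30.3% of all genes did so there. Without library 2, edgeR called 74 members lower, and 14.8% of all genes. Leaving out library 6 left 2 member calls, where 0.728% of all genes were called lower. Leaving out library 7 or any 1 of the 3 controls left 0 members, and at most 3 genes lower and 5 higher of all genes tested, with 74 members at an unadjusted p below 0.05 in each of these fits. On all libraries, DESeq2 called 74 of 78 members lower and 10.1% of all genes. With limma-voom and sample quality weights these were 76 members and 18.1% of all genes.

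**Figure D2:**
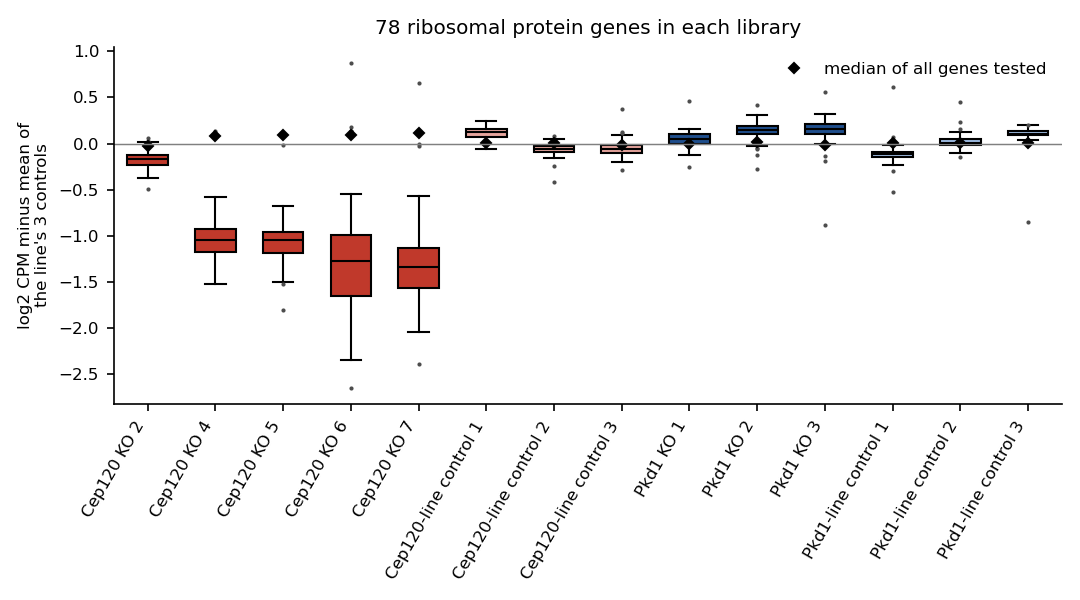
Log2 CPM of the 78 tested members minus the mean of the 3 controls of the same line, 1 box per library (box, quartiles; line, median; whiskers, up to 1.5 interquartile ranges; dots, genes beyond), with diamonds for the median of all genes tested. The boxes of Cep120 KO libraries 4 to 7 have medians of -1.05 to -1.33, library 2 has -0.17, and the other 9 libraries lie between -0.12 and 0.16.

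Gene length moved with the same libraries. Ribosomal protein messages are short, with a median transcript length of 704 bases against 1993 over all genes tested, and 38 of the 78 members are among the shortest 10% of genes (up to 681.5 bases). The median log2 fold change of all genes in the Cep120 comparison was -0.40 in the shortest 10% and 0.66 in the longest 10%. Long genes exceeded short ones by 0.85 to 1.14 (log2, relative to the controls) in libraries 4 to 7 and by -0.07 in library 2. The values were -0.26 to -0.14 in the controls of that line and 0.01 to 0.36 in the Pkd1 line. High-GC genes exceeded low-GC genes by 0.38 to 1.23 in libraries 4 to 7 and by -0.16 to 0.13 elsewhere. With per-library offsets for length and GC content, 0 of 78 members were called by edgeR (73 at an unadjusted p below 0.05, smallest adjusted p 0.051), where 0.486% of all genes were called lower. The median of the members was then -0.69, against -0.02 over all genes.

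Among the small subunit members, Rpsa, also known as the laminin receptor, measured 3669, 1929, 1887, 2218 and 1871 CPM in libraries 2, 4, 5, 6 and 7, and 4378, 4105 and 3976 CPM in the controls. Every KO library was below every control, with library 2 nearest. The log2 fold change was -0.84 ± 0.21 (SE; edgeR, adjusted p = 0.0307).
Rps3, which lines the messenger entry channel, measured 2884 CPM in library 2, 1206 to 1441 CPM in libraries 4 to 7 and 2998 to 3605 CPM in the controls (log2 fold change -0.95 ± 0.24 SE).
Rps6, the phosphorylation target of S6 kinase, measured 1390, 729, 670, 730 and 667 CPM against 1616, 1495 and 1382 CPM, so library 2 lay within the range of the controls (log2 fold change -0.84 ± 0.23 SE; edgeR, adjusted p = 0.0326). Rps4x, the X-linked gene of the S4 protein, overlapped the controls in the same way, with 1580 CPM in library 2 and 1577 to 2037 CPM in the controls. Its log2 fold change was -0.76 ± 0.20 (SE).

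**Figure D3:**
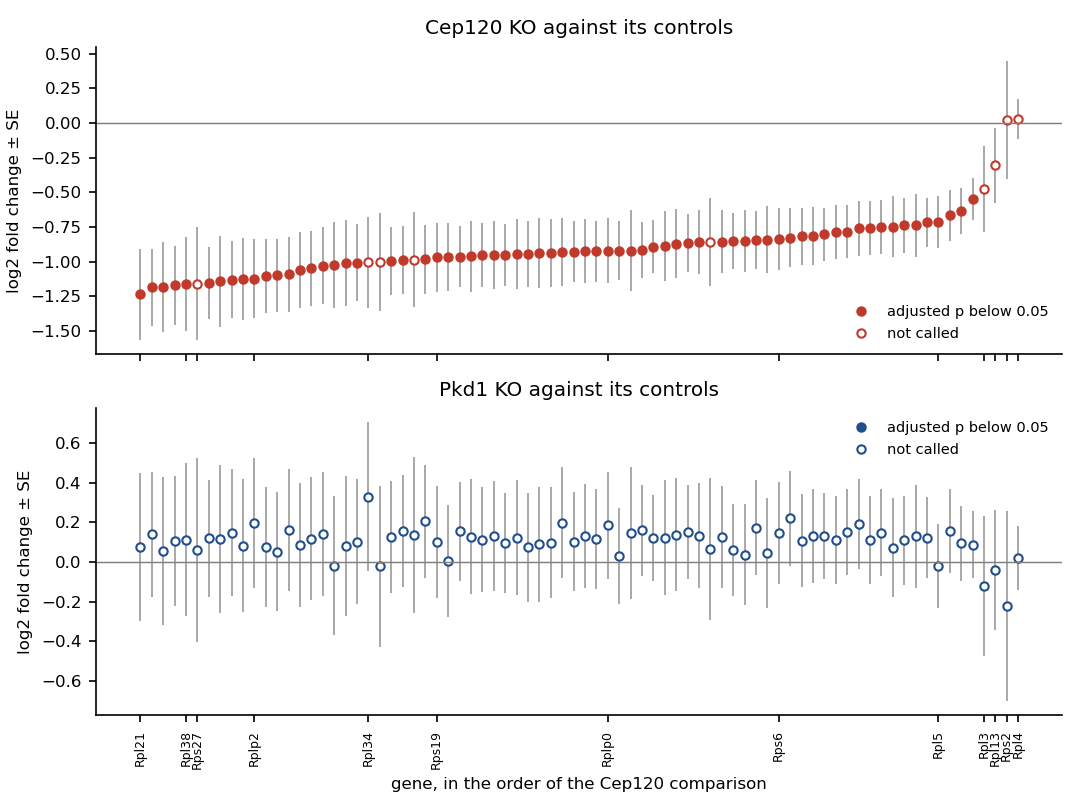
Log2 fold change with its standard error for each of the 78 tested members, in the order of the Cep120 comparison with some of them labelled, for Cep120 KO (upper) and Pkd1 KO (lower) against the controls of each line; filled circles have an adjusted p below 0.05. In the upper panel 69 circles are filled and negative, down to -1.24 for Rpl21; in the lower panel none is filled and 72 of 78 are positive.

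The 12 members whose mutation causes Diamond-Blackfan anaemia, a failure of red cell production, included 11 that fell, with a median of -0.93. Over all members 69 of 78 fell, with the same median, so the genes of this disease did not stand apart. Rps19, the gene most often mutated in that disease, measured 3217, 1542, 1571, 1397 and 1366 CPM against 3733, 3456 and 3500 CPM. Library 2 was 1 of the 5 below all controls, and the other 4 were under 1600 CPM. Its log2 fold change was -0.97 ± 0.25 (SE; edgeR, adjusted p = 0.0312). Rps24 measured 905 CPM in library 2, 454 to 537 CPM in libraries 4 to 7 and 943 to 1128 CPM in the controls (log2 fold change -0.82 ± 0.20 SE). Rps29 was the list member that missed the threshold, at 810, 507, 534, 188 and 246 CPM against 897, 852 and 968 CPM (log2 fold change -0.99 ± 0.34 SE; edgeR, adjusted p = 0.0656). Its KO and control libraries did not overlap, but the 5 KO libraries spread over more than a 4-fold range.

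The 9 members reported to bind MDM2 included 8 that fell, with a median of -0.95. This is near the 69 of 78 and the median of -0.93 over all members. Rpl5 and Rpl11 form a particle with 5S ribosomal RNA, the form in which they bind MDM2. Rpl5 measured 464, 290, 295, 282 and 255 CPM against 579, 511 and 475 CPM, and its log2 fold change of -0.72 ± 0.19 (SE) was among the smaller ones. Rpl11 measured 746 CPM in library 2, 427 to 443 CPM in libraries 4 to 7 and 799 to 969 CPM in the controls (log2 fold change -0.80 ± 0.19 SE). In both genes library 2 stood between the other KO libraries and the controls. Rpl23, Rpl26 and Rps14 fell by 0.81, 0.99 and 1.17 on the log2 scale, and Rps27a, made as a fusion with ubiquitin, fell by 1.05. Rps27l, itself a p53 target, was the member that missed the threshold (log2 fold change -1.0 ± 0.35 SE; edgeR, adjusted p = 0.0683).

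All 3 P stalk genes fell, as did 69 of all 78 members. The stalk on the large subunit recruits and activates the elongation factors. Rplp0, which anchors it, measured 5711, 2612, 2579, 3165 and 2777 CPM against 6669, 6513 and 5972 CPM. Library 2 was just below the lowest control, and the other 4 were far below it. Its log2 fold change was -0.92 ± 0.24 (SE; edgeR, adjusted p = 0.0312). Rplp1 and Rplp2, the acidic proteins that bind in pairs, fell by 1.13 and 1.12 on the log2 scale.

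The largest falls among called members included those of Rpl21 (-1.24), Rps12 (-1.18), Rpl27 (-1.18), Rps14 (-1.17) and Rpl38 (-1.16), with standard errors of 0.28 to 0.34, so they are not separated from the median of the members. Rpl38, needed in the mouse embryo for translation of Hox messages, measured 484, 277, 290, 115 and 146 CPM against 612, 527 and 626 CPM. Libraries 6 and 7 were lower than libraries 4 and 5. The same order, with libraries 6 and 7 below 4 and 5, was seen for Rpl41 (893 and 990 CPM against 1863 and 1951 CPM), Rps27 (111 and 133 CPM against 341 and 347 CPM) and Rps27l (92.0 and 87.8 CPM against 183 and 187 CPM). It was reversed for Rplp0 and Rpl27a, where libraries 6 and 7 had 236 and 216 CPM and libraries 4 and 5 had 170 and 176 CPM of Rpl27a. Libraries 4 and 5 were the most alike of any pair within a group, with a chi-square per gene of 4.28 against 11.5 for the next pair.

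In all, 9 members were not called in the Cep120 comparison, and they were picked out after their values were seen. Rps27, Rps27l, Rps29, Rps15 and Rpl34 had log2 fold changes of -1.16 to -0.86 with adjusted p values of 0.0542 to 0.0764 (edgeR). Rpl3, a core protein beside the peptidyl transferase centre, was at 1118, 1046, 843, 1722 and 1056 CPM against 1622, 1176 and 2029 CPM (log2 fold change -0.47 ± 0.31 SE). The remaining 3 were not below the controls throughout libraries 4 to 7. Rpl4 measured 1551, 1862, 1673, 1911 and 1660 CPM against 1890, 1688 and 1511 CPM, a log2 fold change of 0.03 ± 0.14 (SE; edgeR, adjusted p = 0.902). Its groups overlapped fully. Rps2 measured 1155 CPM in library 2, 458 and 487 CPM in libraries 4 and 5, and 2230 and 1920 CPM in libraries 6 and 7, against 1406, 1294 and 1001 CPM in the controls. Libraries 4 and 5 were thus below every control and libraries 6 and 7 above every control, and the log2 fold change was 0.02 ± 0.43 (SE). Rpl13 measured 970 and 982 CPM in libraries 4 and 5 and 2094, 2275 and 2057 CPM in libraries 2, 6 and 7, against 2050, 1908 and 2261 CPM. Its log2 fold change was -0.31 ± 0.27 (SE), with only libraries 4 and 5 below every control. The coding transcripts Rpl4-201 and Rpl13-201 held at least 98.5% and 99.1% of the transcript counts of their genes in every library.

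**Figure D4:**
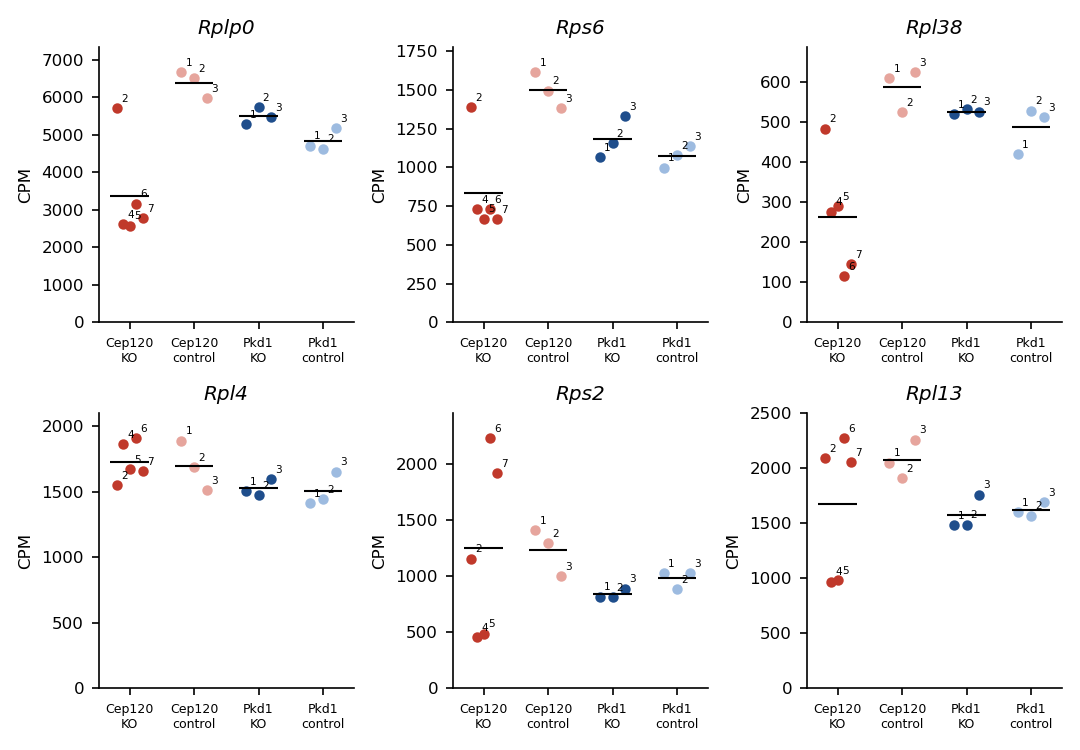
CPM of 6 members in each library, with the replicate number beside each point and a line at the group mean. Rplp0, Rps6 and Rpl38 are low in Cep120 KO libraries 4 to 7, Rpl4 is level, and Rps2 and Rpl13 are low in libraries 4 and 5 but not in 6 and 7.

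Rpl4 also hosts the most small nucleolar RNA (snoRNA) genes, 5 within its span on the same strand by GENCODE M21. In all, 29 tested members host at least 1, and 25 of them fell, with a median log2 fold change of -0.85. Of the 49 without one, 44 fell, with a median of -0.94. Across the 78 members the rank correlation of fold change with transcript length was 0.44, and 0.03 after the length and GC offsets. Its rank correlation with GC content was 0.11, and -0.35 after the offsets. With control TPM these values were -0.25 and -0.30. The points share the same 8 libraries, and these values are descriptions.

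Rps24 is spliced into several coding forms that differ at the end of the protein. Rps24-202 held 60.2 to 67.7% of the gene's transcript counts in the KO libraries and 58.3 to 67.3% in the controls. Rps24-210, another coding form, held 7.80%, 11.7%, 12.6%, 3.04% and 3.52% in libraries 2, 4, 5, 6 and 7 and 7.71 to 12.5% in the controls. It was lowest in libraries 6 and 7. The retained intron form Rps24-204 held 0.773%, 2.91%, 2.58%, 5.75% and 4.49% against 0.420 to 0.654% in the controls. Across the 49 members whose transcript lines add up to the gene count within 1%, retained intron forms took 3.02 to 3.28% of counts in the KO libraries and 2.50 to 3.01% in the controls, while the 6 Pkd1-line libraries had 2.99 to 3.19%, which overlaps both.

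In Pkd1 KO, no member was called: edgeR called 0 of 78 (0 at an unadjusted p below 0.05), and 0% of all genes were called in either direction (259 genes at an unadjusted p below 0.05). DESeq2 and limma-voom called 0 members as well. Of all genes, DESeq2 called 2 higher and 1 lower, and limma-voom 0 higher and 1 lower. The members took 9.41%, 10.0% and 9.50% of counts in the KO libraries and 8.53%, 9.11% and 9.79% in the controls, which overlap. The log2 fold change was positive for 72 of 78, with a median of 0.12 against -0.01 over all genes, and the median standard error was 0.28. All 3 KO libraries lay above all 3 controls for 12 members, against 4.88% of all genes. These included Rpl22, Rpl30, Rplp0, Rplp1, Rplp2, Rps18, Rps28, Rps29 and Rpsa. Rpl8, of the large subunit, had the smallest p, with 2351, 2678 and 2573 CPM against 2086, 2094 and 2351 CPM (log2 fold change 0.22 ± 0.24 SE; edgeR, adjusted p = 1). Rpsa measured 3725, 3904 and 4061 CPM against 3488, 3215 and 3667 CPM, and Rplp0 5279, 5726 and 5475 CPM against 4711, 4625 and 5170 CPM.

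The difference between the 2 KO effects had a median of -1.03 over the 78 members and 0.13 over all genes. With edgeR, 0 of 78 members were called, and 0% of all genes, while 70 members and 3436 genes had an unadjusted p below 0.05. Rpl36al had the smallest p, with a difference of -1.08 on the log2 scale (unadjusted p = 0.00342, adjusted p = 0.176 with edgeR and Benjamini-Hochberg). limma-voom with quality weights called 76 members lower, where it called 12.6% of all genes lower. DESeq2 called 16, where it called 1.57% of genes lower. Without Cep120 KO library 2, edgeR called 74 lower, and 8.46% of all genes. The difference was thus past the threshold with some tools and libraries and not with others.

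The 2 control groups also differed in level. Of the 78 members, 76 had a positive log2 fold change of Cep120-line over Pkd1-line controls, with a median of 0.33 against -0.01 over all genes, and for 68 all 3 Cep120-line controls lay above all 3 Pkd1-line controls, against 11.5% of all genes. With edgeR, 0 of 78 were called, while 1 had an unadjusted p below 0.05, and 0.124% of all genes were called. DESeq2 called 0 members, and 59 of all genes higher and 25 lower. With limma-voom, 1 member was called, and 91 of all genes higher and 40 lower. That 1 member is Rpl34, with 888, 841 and 890 CPM in the Cep120-line controls and 467, 359 and 169 CPM in the Pkd1-line controls. Its groups did not overlap (log2 fold change 1.40 ± 0.38 SE; edgeR, adjusted p = 0.489), and it passed in a separate fit of the 6 controls (adjusted p = 0.0481 with edgeR, in which 0.927% of all genes were called). The Cep120-line controls thus had the highest member shares of the 14 libraries, and they are the reference of the Cep120 comparison. With all 6 controls pooled, 70 members fell, as did 7.74% of all genes, and the median was -0.77. The 2 control groups differed by gene length too. Long genes exceeded short ones by -0.26 to -0.14 in the Cep120-line controls and by 0.09 to 0.36 in the Pkd1-line controls. With the length and GC offsets, the median of the members between the control groups was 0.21, against 0.01 over all genes.

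Ribosomal protein genes have many processed pseudogenes, copies of the spliced message elsewhere in the genome, and reads can be split between copies. The table holds 316 such lines, of 61 members. They took 9.46 to 12.4% of the reads of members and pseudogenes together in every library. Over all libraries together, they took at least 40% for 6 members. Rps6 is 1 of the 6, with 43.3 to 49.7% of its reads on pseudogene lines in all libraries. Some shares differed between the lines. For Rpl34, the pseudogene share was 1.67 to 8.16% in the 8 Cep120-line libraries, and 37.2%, 41.1% and 29.5% in Pkd1 KO and 21.4%, 42.1% and 70.9% in its controls, all on the line Rpl34-ps1. The 2 lines did not overlap. With pseudogene reads added, the difference of Rpl34 between the control groups was 0.58 ± 0.30 (SE) in place of 1.40. Rps13 showed the opposite order, with 34.5 to 52.1% in the Cep120-line libraries and 24.9 to 27.6% in the Pkd1-line libraries. So did Rps19, with 6.16 to 11.3% in the Cep120 line and 3.37 to 3.59% in the Pkd1 line. For Rpl3, over 50% of its reads were on pseudogene lines in 9 of 14 libraries, with a range of 22.2 to 75.8%. Once these were added, Rpl3 fell in the Cep120 comparison by 0.57 ± 0.16 (SE) on the log2 scale (edgeR, adjusted p = 0.0351). With pseudogene reads added throughout, 71 of 78 members fell, against 6.2% of all genes, while Rps2 stayed at -0.03. The pseudogene share of Rps2 differed within the Pkd1 line, at 23.8 to 25.6% in Pkd1 KO and 13.9 to 14.3% in its controls. With pseudogene reads added, its log2 fold change in the Pkd1 comparison was -0.03 ± 0.47 (SE).

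**Figure D5:**
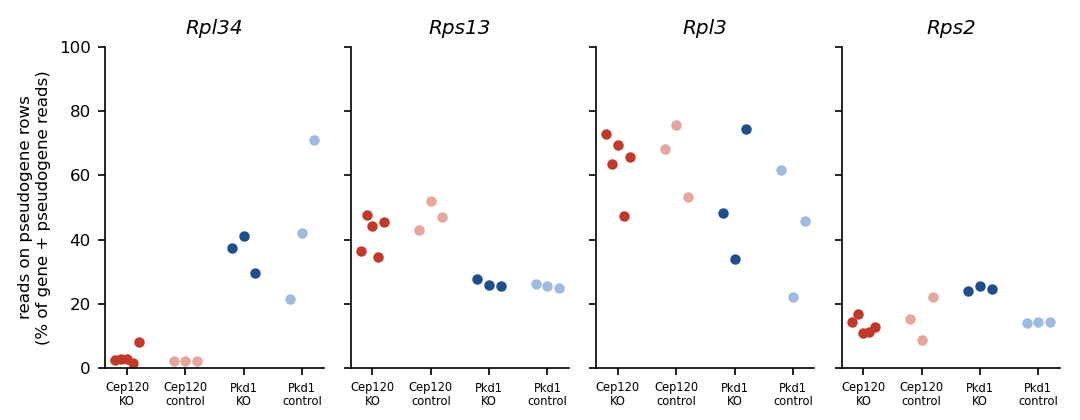
Share of reads on pseudogene lines, in percent of the reads of the gene and its pseudogenes, for Rpl34, Rps13, Rpl3 and Rps2, 1 point per library by group. Rpl34 is at 1.67 to 8.16% in the Cep120 line and 21.4 to 70.9% in the Pkd1 line, and Rps13 is higher in the Cep120 line. Rpl3 scatters within groups, and Rps2 is higher in Pkd1 KO than in its controls.

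Partners that the symbol rule leaves out were also lower in the Cep120 comparison. Fau, a ubiquitin-like fusion that yields S30, Rack1, the signalling scaffold on the small subunit, and Rpl22l1, the paralog of Rpl22, fell by 1.07, 0.97 and 0.94 on the log2 scale, and none of them was called with the length and GC offsets. Rack1 measured 2595, 1262, 1206, 1145 and 972 CPM against 2999, 2792 and 2674 CPM. Rpl7l1, an assembly factor related to Rpl7, measured 320, 324, 323, 169 and 172 CPM against 321, 328 and 314 CPM and was not called (log2 fold change -0.29 ± 0.23 SE). Libraries 6 and 7 were low for it and the others level with the controls.

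The other lists of the pathway are read against the 6.26% of all genes that fell and the 8.4% that rose in the Cep120 comparison, or, with the length and GC offsets, 0.486% and 1.31%. Of the 78 mitochondrial ribosomal protein genes, 39 fell and 0 rose (edgeR), with a median of -0.58 and with Mrps33 (-0.94) and Mrpl2 (-0.73) of smallest p. With the offsets 2 were lower and the median was -0.45. Among 15 translation factors and other TOP messages, 8 fell and 0 rose, with a median of -0.64, and with the offsets 0 were called and the median was -0.56. Naca and Eef1d, a chaperone of nascent chains and a subunit of the elongation factor 1 complex, fell by 0.73 and 0.72. Of 38 ribosome assembly factors, 5 rose and 5 fell, with a median of 0.18, and with the offsets 2 were higher, 0 lower and the median 0.06. Nhp2, a core protein of box H/ACA particles, fell by 0.90, and Utp20, of the small subunit processome, rose by 0.93. Of 13 RNA polymerase I genes measured, 1 rose and 1 fell: Ubtf, the factor that keeps ribosomal DNA open, was at 16.6, 56.0, 64.5, 91.8 and 95.3 CPM against 21.3 to 25.4 CPM (log2 fold change 1.50), and Polr1d, a subunit shared with polymerase III, fell by 0.75. With the offsets neither was called, and the median of the list moved from -0.03 to -0.34.

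Of 14 growth regulators of ribosomal protein synthesis, 5 rose and 0 fell, with a median of 0.75. With the offsets 0 were called and the median was 0.19. Larp1, which holds TOP messages in reserve, was at 10.9, 56.5, 58.2, 55.5 and 42.2 CPM against 11.5, 13.3 and 11.2 CPM (log2 fold change 1.90 ± 0.42 SE; edgeR, adjusted p = 0.029). Library 2 was below all 3 controls and the other 4 were above them. Tsc2, an inhibitor of mTOR complex 1, rose by 0.90. Of 15 p53 genes and targets, 11 rose and 0 fell, with a median of 0.99, and Plk2 and Aen had the smallest p. With the offsets 4 were higher and the median was 0.82. Plk2 was at 40.1, 83.4, 80.2, 90.8 and 88.4 CPM against 10.6 to 13.8 CPM, and here library 2 too stood above every control (log2 fold change 2.60 ± 0.33 SE). Of 8 snoRNA host genes, whose exons are TOP messages in several cases, 4 rose and 1 fell, with a median of 0.75, and with the offsets 2 were higher, 0 lower and the median 1.25. Snhg5 was at 13.0, 47.7, 47.9, 192 and 165 CPM against 9.98, 8.98 and 9.02 CPM, and Snhg8 fell by 0.69.

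None of the genes of these 8 lists was called in the Pkd1 comparison, in the difference between the KO effects or between the control groups (edgeR). Genes with the smallest p of their list in the Pkd1 comparison, among them Mrpl47, Eef2, Ddx21, Taf1c, Tsc2, Plk2 and Snhg8, had log2 fold changes of -0.55 (Plk2) to 0.30 (Snhg8). Between the control groups these were Rpl22l1, Mrpl4, Naca, Ddx21, Polr1c, Tsc2, Bax and Snhg8, from -0.54 (Ddx21) to 0.37 (Rpl22l1). For the difference between the KO effects they were Rack1, Mrps11, Naca, Ddx21, Ubtf, Tsc2, Plk2 and Snhg8, from -1.18 (Rack1) to 3.15 (Plk2). The part of the cell type markers in the Cep120 results was not tested.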

How the data were processed

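RNA of GFP-sorted cells was converted with a SMARTer Ultra Low kit, which does not mark the strand, per the labels' protocols. Per the submitters' processing notes, DRAGEN was used with the mm9 genome. Which annotation release they took is not stated there. The authors deposited estimated counts per gene and per transcript, which were rounded; TPM, which they scaled by transcript length and library size; and log2 values of CPM plus a constant. Of 55774 lines, 287 repeated a gene with the same values and were dropped. Lengths, GC content and snoRNA genes came from GENCODE M21, sequences from RefSeq (GRCm38.p6), neither being the build named above. In R 4.3.3, edgeR 4.0.16 fitted all 14 libraries with 4 group means by its quasi-likelihood test after filterByExpr (minimum count 10) and TMM scaling, with Benjamini-Hochberg adjustment over 16876 genes. CPM values are TMM-scaled. The procedure was tested on simulated data. Total counts of 11347657 or more per library make counting error small for the members beside the spread between libraries.

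Alternatives used limma 3.58.1 (voom, and trend on the deposited log2 values or log2(TPM + 1)), DESeq2 1.42.0, other scalings, no filter, separate fits, offsets from splines on length and GC content, pseudogene reads added, pooled controls and libraries left out. Pseudogene reads together with offsets were added after seeing the data. The members and lists were chosen with earlier results of these data known. Named genes are members with set roles, up to 6 called members in each direction of largest change with a mean CPM of at least 5 (or the member of smallest p), the 3 highest and 3 lowest in TPM and in spread over controls, up to 2 called genes (or that of smallest p) of each list, and Cep120 and Pkd1; others are named as chosen after their values were seen. Some genes that this rule or a list gives are not reported here by name. Replicate numbers were not used to pair the libraries in the main fit. Correlations of same-numbered deviations were -0.045, -0.029 and -0.124 in the Pkd1 line and 0.0517, 0.0289 and -0.0074 between controls. Differently numbered ones were -0.0906 to 0.117 and -0.0921 to 0.055. With 3 libraries per group, these values cannot show whether libraries shared a litter or a batch. CPM and transcript-level normalized files were not used here.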

Additional observations from a re-analysis of the deposited data

Results flagged for a closer look

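Of 29 results tested for 1 stray library among the 5 labelled Cep120 KO, 21 stood out, each because library 2 lay above the other 4 by more than 0.71 of the group's range. Chance marks about 1 in 20 groups, and these results are not independent, since they share the library. Library 2 had 9.68% of its counts on all members, 4.25% on the small subunit and 5.44% on the large subunit. Its CPM was 898 for Rpl10, 746 for Rpl11, 2122 for Rpl13a, 415 for Rpl22, 933 for Rpl23, 359 for Rpl36a, 411 for Rpl39 and 464 for Rpl5. For the stalk genes it was 5711 (Rplp0) and 1397 (Rplp1). In the small subunit it was 4289 for Rps14, 3217 for Rps19, 905 for Rps24, 1221 for Rps27a, 2884 for Rps3, 1580 for Rps4x, 1390 for Rps6 and 3669 for Rpsa. Without library 2, edgeR called 74 of 78 members lower, with a median log2 fold change of -1.20.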

How the results depend on the processing

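The count of 69 members lower in the libraries labelled Cep120 KO stood beside 1057 of all genes lower. A separate fit of that line called 0 members (74 at an unadjusted p below 0.05) and 0 of all genes. With length and GC offsets these were 0 and 82, and with offsets and pseudogene reads 0 and 80. Summing libraries 4 and 5 left 29 members, with 468 of all genes lower. Without libraries 6 and 7 these were 18 and 477, and without libraries 4 and 5 they were 6 and 635. On log2(TPM + 1), 39 members were called (38 lower, 1 higher), with 272 of all genes lower and 4465 higher. With library 2 alone as KO, the members had a median log2 fold change of -0.16. Leaving out 1 library at a time gave 0 to 74, with 1 to 2495 of all genes lower. The median stayed negative in all of these. RLE scaling, TMM without members, no low-count filter, added pseudogene reads and pooled controls gave 67 to 71. In these settings 837 to 1307 of all genes were lower. For the difference between the KO effects the 0 calls became 76 (limma-voom), 16 (DESeq2), and 0 to 74 with 1 library left out. The shares of all genes lower were 12.6% (limma-voom), 1.57% (DESeq2) and 8.46% (without Cep120 KO library 2, which gave the 74). Between the control groups the 0 calls became 1 in a separate fit, 1 with limma-voom and 1 with the replicate block. Of all genes, these fits called 89 higher and 50 lower, 91 higher and 40 lower, and 72 higher and 27 lower. In the Pkd1 comparison the replicate block gave 0 calls, with or without offsets. No paired analysis was possible for the Cep120 comparison because its groups share only the number 2.

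Signs turned in 12 cases, none of them past the threshold, and the cause was not tested. They are Rps4l (0.19 by library totals, 0.15 on deposited log2 values, 0.33 on TPM), Rpl3 (0.17 on TPM), Rpl7l1 (0.066 by library totals, 0.004 without libraries 6 and 7, 0.016 with library 2 alone, 0.027 on deposited log2 values, 0.30 on TPM) and, with library 2 alone, Rpl13a (0.024), Ubtf (-0.45) and Larp1 (-0.13). Of the other alternatives for named genes, 962 kept direction and side of the threshold, 304 lost the call and 34 gained it. With 1 library left out the numbers were 808, 339 and 15, and none turned.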
